A study of Mus musculus with 2 samples.

Results

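Each mature alpha beta T cell carries a receptor made of an alpha chain (TRA) and a beta chain (TRB), and the third complementarity-determining region (CDR3), where the gene segments were joined in the thymus, marks a cell's descendants. The beta locus is usually silenced on 1 chromosome after a successful join, whereas the alpha locus goes on joining V to J segments on both chromosomes until the cell is selected, so a mature T cell can hold 2 productive TRA. Cells with 2 productive TRA and 1 productive TRB are described here: a barcode of the RNA library had to carry 2 distinct productive TRA CDR3 nucleotide sequences and exactly 1 productive TRB CDR3 in the receptor library. There were 596 such cells among 10338 RNA cells, and they were set against 3048 cells with exactly 1 TRA and 1 TRB.

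GD2TIF cells are Cas9 transgenic mouse T cells that were infected with a retrovirus directed against Bcor and Zc3h12a, which also delivered 14g2a, a chimeric antigen receptor for the ganglioside GD2. All cells compared here come from this 1 transfer, and no unedited or untransferred group is part of the comparison. Per the labels, each immunocompetent C57BL/6 mouse received 1000000 cells, and after 2 months CD8+Thy1.1+ cells were sorted from spleen and put through 1 RNA library and 1 receptor library on a Singleron microwell chip. The number and age of the mice are not given in the sources used here, so cells are not replicates, no test was run, and every interval is a 95% interval for counting error only.

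Chains are named by their V and J genes. The alpha locus lies on chromosome 14 of GRCm38, with 130 annotated V segments between 52427967 and 53977678 and 60 J segments between 54155005 and 54218842. The CDR3 sequences below carry the results: the 4 TRA found in most cells, the 2 most frequent pairs of TRA that belong to 1 TRB, and the pair that the assignment rule described later split. Capitals mark the bases between the longest start shared with another TRA of the same V gene and the longest end shared with another TRA of the same J gene; without capitals the shared start and end meet.
TRAV3D-3/TRAJ21: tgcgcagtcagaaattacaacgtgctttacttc
TRAV16D-DV11/TRAJ57: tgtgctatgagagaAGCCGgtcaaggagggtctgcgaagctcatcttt
TRAV13N-1/TRAJ15: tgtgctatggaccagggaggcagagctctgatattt
TRAV6-7-DV9/TRAJ26: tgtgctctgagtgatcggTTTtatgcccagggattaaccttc
TRAV7-5/TRAJ32: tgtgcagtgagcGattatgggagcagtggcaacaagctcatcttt
TRAV12-2/TRAJ31: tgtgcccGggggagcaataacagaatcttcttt
TRAV7D-5/TRAJ53: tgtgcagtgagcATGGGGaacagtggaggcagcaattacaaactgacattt
TRAV16/TRAJ52: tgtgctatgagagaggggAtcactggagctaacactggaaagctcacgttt
TRAV15-2-DV6-2/TRAJ23: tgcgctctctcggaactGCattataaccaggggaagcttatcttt
TRAV10/TRAJ12: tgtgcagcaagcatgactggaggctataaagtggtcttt

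The TRB partners of these chains, on chromosome 6, are given in lower case throughout. The V gene of the second was called jointly as TRBV12-2+TRBV13-2 and is written TRBV13-2.
TRBV15/TRBJ1-1: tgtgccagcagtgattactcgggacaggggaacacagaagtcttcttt
TRBV13-2/TRBJ2-3: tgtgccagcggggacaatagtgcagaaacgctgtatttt
TRBV14/TRBJ1-4: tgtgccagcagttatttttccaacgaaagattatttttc
TRBV15/TRBJ2-5: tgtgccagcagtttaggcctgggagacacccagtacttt
TRBV19/TRBJ1-1: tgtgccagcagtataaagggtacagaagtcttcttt

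Cells with 2 TRA made up 16.4% of the cells with 1 TRB and 1 or 2 TRA (596 of 3644, exact binomial interval 15.2 to 17.6%). No cell had over 2 TRA. Trac, the constant gene shared by all alpha chains, had an RNA UMI in 95.3% of the cells with 2 TRA and in 93.4% of the cells with 1 TRA, at median depths of 2357.5 and 2063.5 RNA UMIs. Summed over cells, Trac stood at 1630 CPM (UMIs of the gene per 1000000 UMIs of the group) in cells with 2 TRA and at 1657 CPM in cells with 1 TRA, and Cd8b1, a chain of the CD8 co-receptor, at 371 and 417 CPM in the same order of groups. The 596 cells held 174 distinct TRA and 117 distinct TRB. The 2 TRA of a cell were distinct joins: none differed at 2 bases or fewer, the smallest difference among the 76 cells whose TRA were of equal length was 13 bases, and 7 cells used 1 V gene for both TRA.

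The first TRA is the one with more unique molecular identifiers (UMIs, tags that count captured RNA molecules), so its higher count follows from the definition. In cells with 2 TRA the first had a median of 10 UMIs (quartiles 7 and 14, range 2 to 38) and the second 6 UMIs (quartiles 4 and 8, range 1 to 24), while the only TRA of cells with 1 TRA had 9 UMIs (quartiles 6 and 12, range 1 to 52). The second TRA had a median of 60% of the UMIs of the first, and 26.5% with reads in place of UMIs. It rested on 1 UMI in 26 of the 596 cells and on at least 3 UMIs in 518. The single TRB had a median of 17 UMIs in cells with 2 TRA and 14 UMIs in cells with 1 TRA.

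Many of the pairs recurred. Within 1 TRB, 202 different TRA pairs were seen, of which 57 occurred in at least 2 cells and held 451 of the 596 cells (75.7%). There were 29 pairs in at least 5 cells, and 145 pairs in 1 cell. Of 185 TRA pairs counted whatever the TRB, 11 were found with at least 2 TRB.

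To describe the pairs, each TRA was given a leading TRB, the most frequent TRB among the cells that had this TRA alone, if at least 2 of them carried it and no other TRB was as frequent. It need not hold most of these cells: TRAV10/TRAJ12 led with 8 of 26 cells. A TRA was called own in a cell of its leading TRB and outside in a cell of another TRB. TRB that stood together in at least 40 cells with 2 TRB were treated as 1 family. This division was made after the data had been seen, and it uses cells with 1 TRA, not the cells described here. It separated the cells with 2 TRA into 84 with both TRA own (14.1%), 377 with 1 own and 1 outside TRA (63.3%) and 44 with both outside (7.38%), and in the other 91 cells at least 1 TRA had no leading TRB. Among cells with 1 TRA that had a leading TRB, 705 of 2775 (25.4%) carried an outside TRA. The leading TRB was chosen in these same cells, so the rule keeps this share low and it is no neutral reference. Per chain in cells with 2 TRA, 202 of 540 first TRA (37.4%) and 312 of 538 second TRA (58.0%) with a leading TRB were outside.

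**Figure D1:**
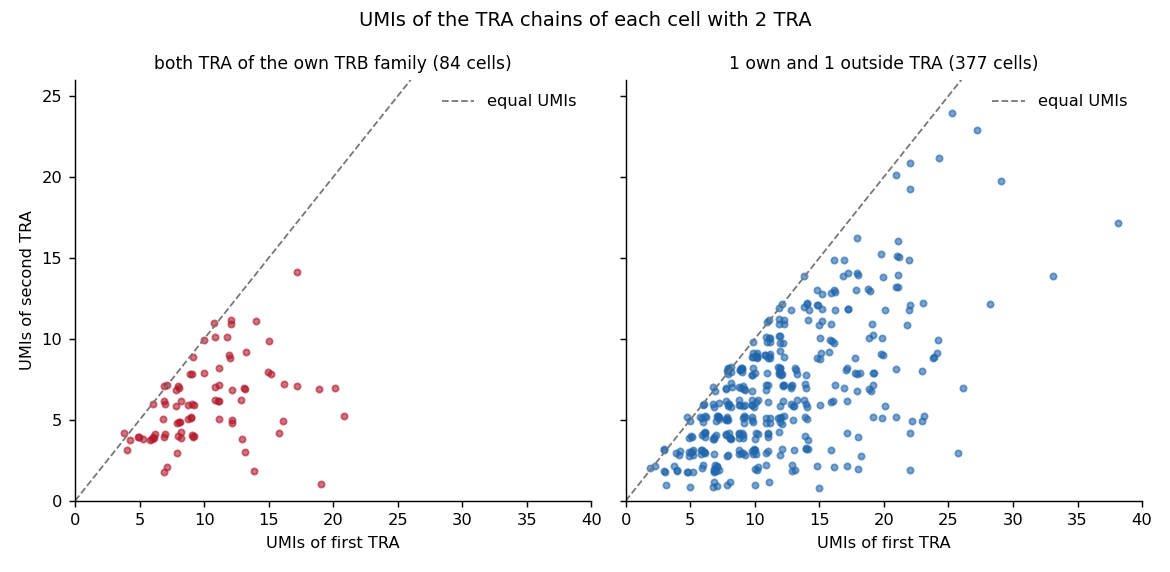
UMIs of the second TRA against UMIs of the first TRA, 1 point per cell with small random offsets; the dashed line marks equal UMIs and the scales are shared. Left, the 84 cells with both TRA own, where the median second TRA had 65.2% of the UMIs of the first; right, the 377 cells with 1 own and 1 outside TRA, where it had 60%.

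The cells with both TRA own came from 9 TRB with 1 pair each, and each of the 9 pairs recurred. The most frequent joined TRAV7-5/TRAJ32 with TRAV12-2/TRAJ31 in 29 cells of TRBV14/TRBJ1-4. The first of these TRA had a median of 8 UMIs (range 4 to 19) and the second 6 UMIs (range 1 to 12). Among the 59 cells with 1 TRA and this TRB, 28 carried TRAV7-5/TRAJ32 alone, 27 carried TRAV12-2/TRAJ31 alone, and 4 carried neither. Both chains of the pair thus stood alone in nearly equal numbers of cells of this TRB.

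In TRBV15/TRBJ2-5, TRAV7D-5/TRAJ53 stood with TRAV16/TRAJ52 in 22 cells. Their medians were 9 UMIs (range 4 to 20) and 7 UMIs (range 2 to 14). Of the cells with 1 TRA of this TRB, 87 had TRAV7D-5/TRAJ53 alone, 13 had TRAV16/TRAJ52 alone and 16 had neither. Further pairs of this kind were in 9, 7, 6 and 5 cells, with the TRB TRBV13-3/TRBJ1-1, TRBV14/TRBJ2-4, TRBV12-1/TRBJ1-2 and TRBV12-1/TRBJ2-5, and the last 3 pairs were in 2 cells each.

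Cells with 1 own and 1 outside TRA were dominated by a few chains. The outside TRA was 1 of the 4 most frequent TRA of the library in 268 of the 377 cells (71.1%). Among the 705 cells with 1 TRA where it was outside, 411 (58.3%) carried 1 of these 4 TRA. Of all cells with 1 TRA, own or outside, 51.5% carried 1 of them. In TRBV15/TRBJ1-1, the TRB of most cells, TRAV3D-3/TRAJ21 was the own chain in 116 of 121 cells with 2 TRA and in 517 of 717 cells with 1 TRA. Beside it, TRAV13N-1/TRAJ15 stood in 43 cells, TRAV6-7-DV9/TRAJ26 in 28 and TRAV16D-DV11/TRAJ57 in 13. Without the own chain, these 3 TRA stood alone in 45, 28 and 31 cells of the same TRB.

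TRBV13-2/TRBJ2-3 showed the same chains in other roles. Its own chain TRAV16D-DV11/TRAJ57 stood in 109 of 120 cells with 2 TRA, with TRAV13N-1/TRAJ15 in 42 cells, TRAV3D-3/TRAJ21 in 32 and TRAV6-7-DV9/TRAJ26 in 25. In all, recurring pairs of 1 own and 1 outside TRA came from 14 TRB, numbered 41 and held 342 of the 377 cells. In UMIs the chains overlapped: the outside chain had a median of 8 UMIs (quartiles 5 and 12) and the own chain 9 UMIs (quartiles 6 and 13), and the own chain was first in 241 of the 377 cells.

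**Figure D2:**
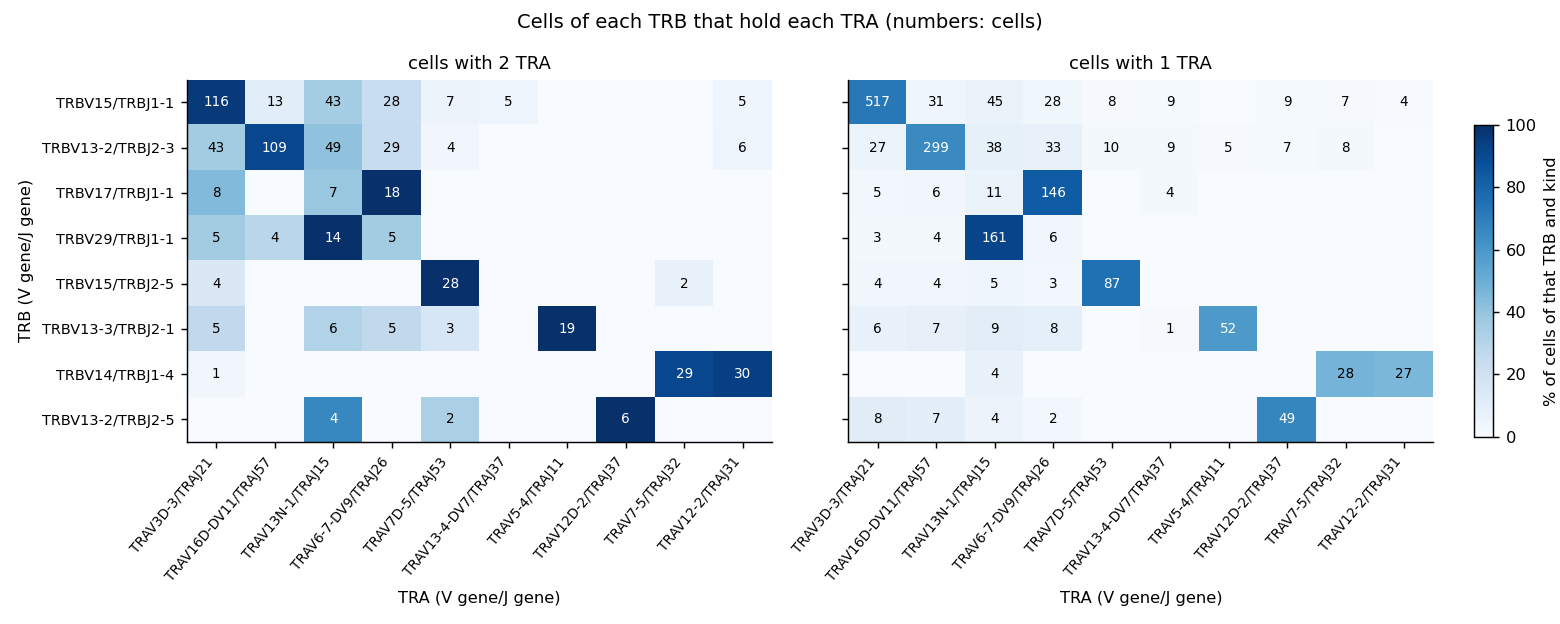
Cells of the 8 most frequent TRB (rows) that hold each of 10 TRA (columns), left among cells with 2 TRA and right among cells with 1 TRA. Numbers are cells and the shade is their share of the cells of that TRB and kind; in TRBV14/TRBJ1-4 both chains of the pair are dark at the left, with 29 and 30 cells, and stand at 28 and 27 cells at the right.

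The reads behind each UMI differed between these classes. A UMI of a TRA in cells with both TRA own rested on a median of 398 sequencing reads (quartiles 241 and 670, 168 chains). In cells with 1 own and 1 outside TRA, the own chain had a median of 174 reads per UMI (quartiles 96.9 and 310), and the outside chain 31.7 (quartiles 21.3 and 53.5). Among cells with 1 TRA, the only chain had 304 reads per UMI where it was own and 37.9 where it was outside. The own chain had the higher median in 21 of the 22 pairs of 1 own and 1 outside TRA that were in at least 5 cells.

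The pair that went the other way was in TRBV19/TRBJ1-1, where TRAV15-2-DV6-2/TRAJ23 and TRAV10/TRAJ12 stood together in 12 cells. Their median UMIs were 12.5 and 4, and their reads per UMI 306 and 566. TRAV10/TRAJ12 was counted as outside because 8 of the 717 cells with 1 TRA of TRBV15/TRBJ1-1 carried it, against 2 of the 18 of TRBV19/TRBJ1-1. With the leading TRB taken by share of a TRB's cells instead of by number, 96 cells had both TRA own and 360 had 1 own and 1 outside. This pair also stood in 5 cells of TRBV15/TRBJ1-1.

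With a TRA counted at 100 reads per UMI or more, a threshold set after seeing the data, 167 of the 596 cells (28.0%) had 2 TRA: 78 of the 84 cells with both own, and 50 of the 377 with 1 own and 1 outside. The share of cells with 2 TRA was then 6.28%, and 22 pairs recurred within 1 TRB.

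**Figure D3:**
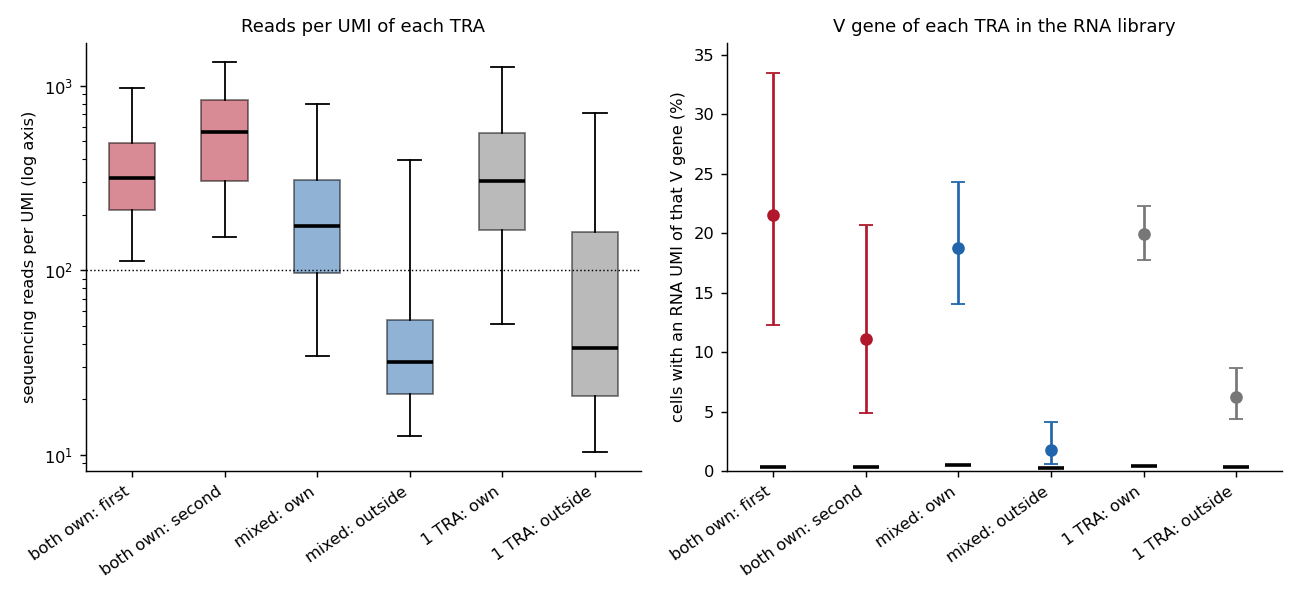
Left, sequencing reads per UMI of each TRA on a log axis (box, quartiles with the median; whiskers, 5th and 95th percentile; dotted line, 100 reads per UMI). Right, share of cells with an RNA UMI of the chain's V gene (95% exact binomial interval) and, as a black bar, the share in cells with no contig of that V gene; "mixed" means 1 own and 1 outside TRA, whose outside chain was lowest on both sides, at 31.7 reads per UMI and 1.79%.

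The RNA library, which the selection of cells did not use, gave a second reading of the V genes. In cells with 1 own and 1 outside TRA, the V gene of the own chain had an RNA UMI in 45 of 240 cells (18.8%, 14.0 to 24.3%), and that of the outside chain in 5 of 279 cells (1.79%, 0.584 to 4.13%). Both were read in the same kind of cell, at a median of 2535 RNA UMIs, and the denominators are the cells whose V gene has a row in the matrix. The own and outside chains did not use the same mix of V genes, so the shares also differ in which genes were read. The part of this in the difference was not tested. The intervals of the own and outside chain do not overlap. Cells without a contig of the V genes of the outside chains had a UMI of them in 0.293% of cells, and of the own chains in 0.546%.

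In cells with both TRA own, the V gene had an RNA UMI for the first TRA in 14 of 65 cells (21.5%, 12.3 to 33.5%) and for the second in 8 of 72 cells (11.1%, 4.92 to 20.7%), at a median depth of 2299 RNA UMIs. Their backgrounds were 0.362% and 0.353%. V genes of near-identical copies, which mouse TRAV has many of, may share reads in either library.

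The J genes of the 2 TRA were set against each other by position, since joining on each chromosome moves stepwise through the J segments. The J starts of the 9 pairs with both TRA own lay a median of 2709 bases apart (range 0 to 7174), and across these pairs the positions had a Pearson correlation of 0.94. The 33 distinct recurring pairs of 1 own and 1 outside TRA had a median distance of 12972 bases (range 659 to 45915) and a correlation of -0.042. These correlations are across pairs of chains that share 1 locus and some chains, and are descriptions with no test. At 100 reads per UMI or more, 7 recurring pairs of 1 own and 1 outside TRA had a median distance of 17272 bases, and the 9 pairs with both own were as before. In TRBV14/TRBJ1-4 the 2 J genes are the neighbours TRAJ32 (54186101 to 54186166) and TRAJ31 (54187895 to 54187951). In TRBV15/TRBJ2-5 they are TRAJ53 (54162644 to 54162709) and TRAJ52 (54165316 to 54165381).

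The share of cells with 2 TRA varied between TRB. Over the 17 TRB of at least 30 cells it ran from 5.13 to 45.5%, with a median of 17.0%. It was highest in TRBV19/TRBJ1-1 (15 of 33 cells, 45.5%, 28.1 to 63.6%) and TRBV14/TRBJ1-4 (32 of 91, 35.2%, 25.4 to 45.9%). The largest TRB had 121 of 838 cells (TRBV15/TRBJ1-1, 14.4%, 12.1 to 17.0%) and 120 of 577 (TRBV13-2/TRBJ2-3, 20.8%, 17.6 to 24.3%), and TRBV29/TRBJ1-1 had 14 of 189 (7.41%, 4.11 to 12.1%). The intervals of TRBV14/TRBJ1-4 and TRBV15/TRBJ1-1 do not overlap, and the interval of TRBV29/TRBJ1-1 lies below the share over all TRB.

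**Figure D4:**
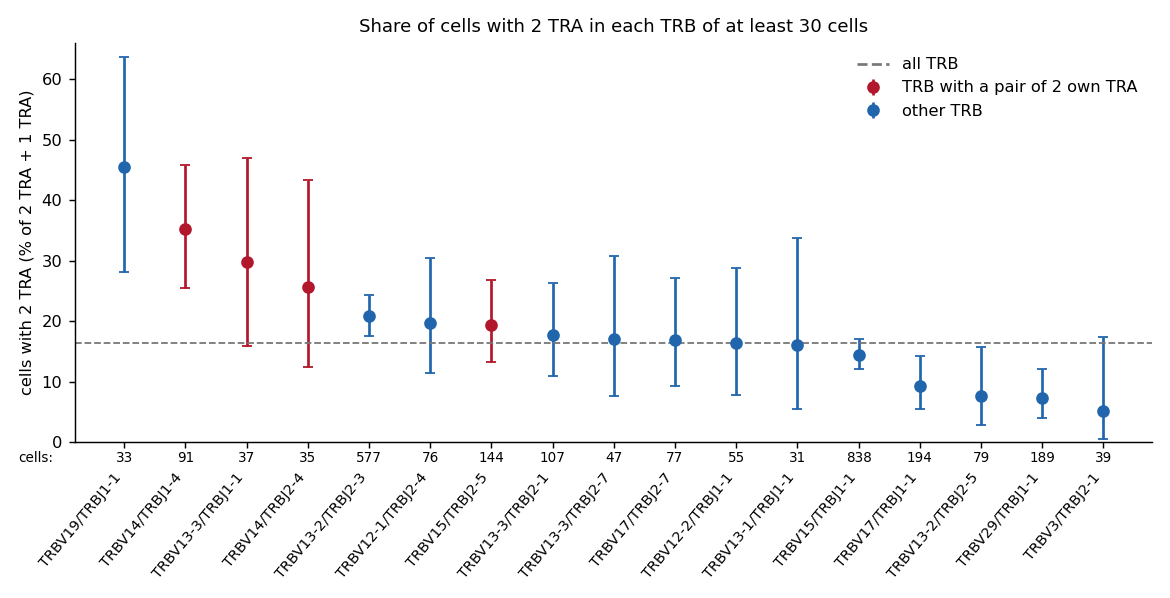
Share of cells with 2 TRA among the cells with 1 or 2 TRA of each TRB of at least 30 cells, with 95% exact binomial intervals and the number of cells under each point. The dashed line is the share over all TRB, 16.4%; TRB with a recurring pair of 2 own TRA are in red, from 19.4% in TRBV15/TRBJ2-5 to 35.2% in TRBV14/TRBJ1-4.

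Cells with 2 TRA were deeper in RNA as a whole, but not where the pair was seen once. The median over all 596 was 2357.5 UMIs (quartiles 1828 and 3187) and 1157.5 genes, against 2063.5 UMIs (quartiles 1614 and 2652) and 1033.5 genes in cells with 1 TRA. Cells with both TRA own had a median of 2299 UMIs and cells with 1 own and 1 outside TRA 2535. The 451 cells of recurring pairs had a median of 2546 UMIs, and the 145 cells whose pair was in 1 cell 1873 (1808 to 2034), below that of cells with 1 TRA (2026 to 2105). In 5 equal groups of cells by RNA UMIs, from shallow to deep, the share with 2 TRA was 9.60, 14.4, 16.0, 16.3 and 25.4%. Mitochondrial UMIs had a median of 3.42% in cells with 2 TRA and 3.46% in cells with 1 TRA. No doublet caller was run and no cell was removed as a doublet. Without cells above the 95th percentile of RNA UMIs the share with 2 TRA was 15.7%.

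Genes that mark TRB families were read in the cells with 1 own and 1 outside TRA. For each family pair with at least 10 such cells, genes at least 4-fold higher in the family of the outside TRA were chosen in every second cell with 1 own TRA, and the remaining cells set the scale, with 0% for the cell's own family and 100% for the family of the outside TRA. At least 3 such genes were found for 5 family pairs, and no value is given for the others. In TRBV13-2/TRBJ2-3 cells with the TRA of TRBV15/TRBJ1-1, 35 such genes, led by the chemokine gene Ccl5, stood at 4.24% (0.560 to 8.38%, 32 cells), and in cells of that TRB with another outside TRA at 2.13% (77 cells). The other 4 family pairs, with 3 to 10 genes each, ranged from -14.6 to 1.66%, and cells with another outside TRA from 0.472 to 8.73%. These values rested on few UMIs. The lowest, in TRBV15/TRBJ1-1 cells with the TRA of TRBV13-2/TRBJ2-3, had 4 UMIs in 13 cells (-19.4 to -4.32%). The others of these 4 family pairs had 28 to 35 UMIs. The cells with another outside TRA were higher in 3 of the 5 family pairs. Cells with 1 TRA that carried only the outside TRA stood at 12.3 to 47.9% over the 5 family pairs.

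Trbc1 and Trbc2 are the constant genes of the beta chain. Of the UMIs of both, Trbc1 took 13.9% in TRBV13-2/TRBJ2-3 cells with the TRA of TRBV15/TRBJ1-1, against 9.99% in cells of the own family with 1 own TRA and 89.6% in the family of the outside TRA. With another outside TRA, cells of that TRB stood at 11.6%. In the opposite family pair, TRBV15/TRBJ1-1 cells with the TRA of TRBV13-2/TRBJ2-3, it took 92.2%, against 89.6% in the own family and 9.99% in the family of the outside TRA. The value of 13.9% lies toward the outside family and that of 92.2% away from it. TRBV13-2/TRBJ2-3 cells stood at 11.4% with the TRA of TRBV17/TRBJ1-1 and at 11.6% with that of TRBV29/TRBJ1-1. With another outside TRA they stood at 12.6 and 12.7%. TRBV15/TRBJ1-1 cells stood at 88.8 and 89.4% with these outside TRA in the same order. The outside families were at 83.3 and 36.4%, so these values lay slightly toward them, and whether they differ from the own family was not tested.

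Genes chosen in the other direction, higher in the cell's own family, were read for 6 family pairs on the same scale. In TRBV13-2/TRBJ2-3 cells with the TRA of TRBV15/TRBJ1-1, 10 such genes stood at 20.6% (7.47 to 32.6%) of the way to the outside family, and at -7.07% with another outside TRA. The other 5 family pairs ran from -13.1 to 15.7%.

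**Figure D5:**
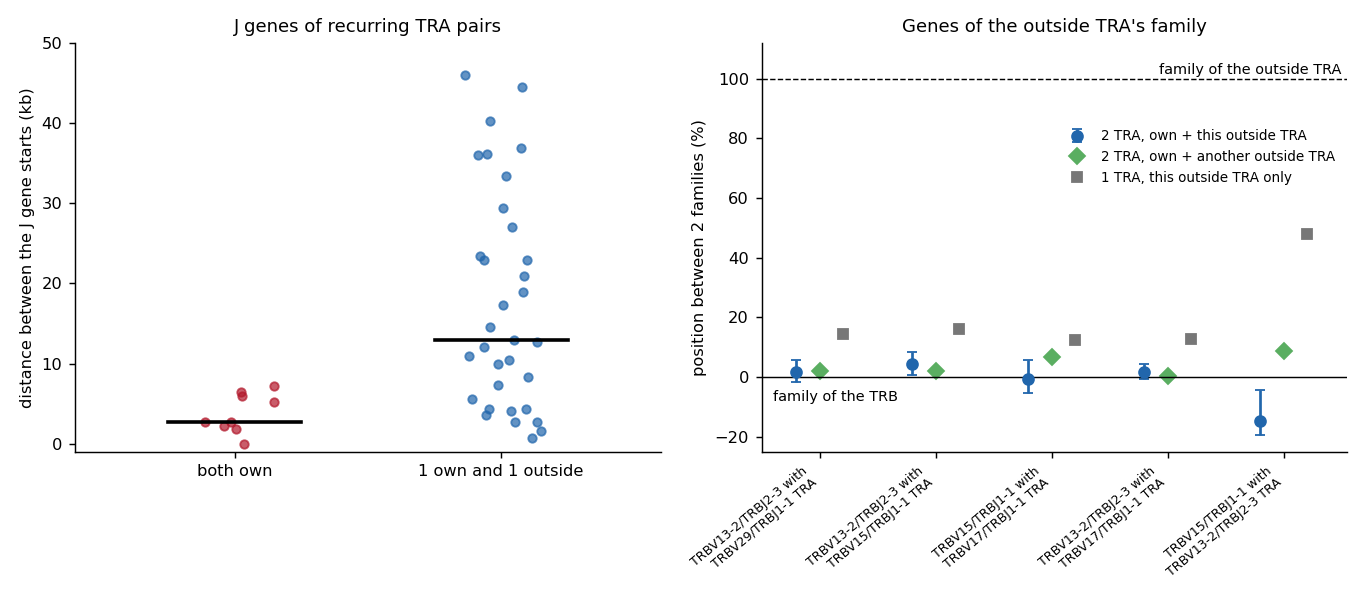
Left, distance between the J gene starts of the 2 TRA of each recurring pair, 1 point per distinct pair with the median as a bar, 2.7 kb for both own and 13 kb for 1 own and 1 outside. Right, summed level of the genes of the outside TRA's family in cells of 5 family pairs, with 95% Poisson intervals. The scale runs from the family of the TRB (0%) to the family of the outside TRA (100%). Cells with 2 TRA lay between -14.6 and 8.73% and cells with the outside TRA alone between 12.3 and 47.9%. The value of -14.6% rested on 4 UMIs.

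Over all cells with 2 TRA, few genes differed from cells with 1 TRA. A few genes, chosen after their values were seen, had different ratios in the classes of cells. Counts were summed over cells, 1567579 UMIs in cells with 2 TRA and 6867917 in cells with 1 TRA, and compared as CPM. Of 5664 genes with at least 200 UMIs, 17 (0.3%) were at least 1.5-fold higher and 51 (0.9%) at least 1.5-fold lower in cells with 2 TRA, and the median ratio was 0.997. Because families differ in expression, a second ratio weighted the cells with 1 TRA to the TRB of the cells with 2 TRA, over the 76 TRB that had both kinds; 27 genes (0.477%) were then higher and 62 (1.09%) lower.

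The 377 cells with 1 own and 1 outside TRA weigh most in these sums, so the classes were also set against cells with 1 own TRA, weighted to the same TRB. Trac went opposite ways: it was at 2787 CPM in the 84 cells with both TRA own against 2048 CPM (ratio 1.36), and at 1304 CPM in the cells with 1 own and 1 outside TRA against 1648 CPM (ratio 0.791). The ratio was 1.33 (1.10 to 1.59) in the 29 cells of TRBV14/TRBJ1-4 and 1.35 (1.11 to 1.64) in the 22 of TRBV15/TRBJ2-5 with both own. In cells with 1 own and 1 outside TRA it was 0.768 (0.689 to 0.854) in TRBV15/TRBJ1-1 and 0.833 (0.737 to 0.940) in TRBV13-2/TRBJ2-3. Against cells with 1 own TRA, Trac was thus higher in cells with both own and lower in cells with 1 own and 1 outside TRA. The pooled comparison used all cells with 1 TRA, so its near-equality is on another basis. A cell counts as having 2 TRA only if RNA of both chains was captured, so Trac is not independent of the selection. The part of the selection in these ratios was not tested.

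Pdcd1, the gene of the inhibitory receptor PD-1, was at 641 CPM in cells with both TRA own against 291 CPM (ratio 2.20), and at 303 CPM in cells with 1 own and 1 outside TRA against 357 CPM (ratio 0.848). Ccl5, a chemokine gene, was at 932 CPM in cells with both own against 290 CPM (ratio 3.21), and at 694 CPM in cells with 1 own and 1 outside TRA against 675 CPM (ratio 1.03). Without TRBV14/TRBJ1-4, the ratios of the cells with both own were 2.21 for Pdcd1 and 2.91 for Ccl5. In TRBV15/TRBJ2-5 alone they were 1.13 (0.574 to 2.09) and 1.49 (0.721 to 2.91). In the cells with both own, 1 cell held 20.3% of the Ccl5 UMIs, and in those with 1 own and 1 outside TRA 1 cell held 19.0%. Cxcr6, a chemokine receptor gene, had ratios of 2.65 with both own and 0.461 with 1 own and 1 outside, on 11 UMIs each, and 1 cell held 54.5% of those in the cells with both own. Of genes with at least 200 UMIs, 1.02% of 492 were past 1.5-fold in either direction in cells with both own and 1.4% of 4138 in cells with 1 own and 1 outside TRA; the difference between the classes was not tested.

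None of the 22 genes of the receptor and its proximal signalling passed 1.5-fold in either ratio, where 1.2% of all genes did in the first and 1.57% in the second. Their ratios ran from 0.733 to 1.11, with a median of 0.972. Lck, the kinase that starts receptor signalling, stood at 922 CPM in cells with 2 TRA and 928 CPM in cells with 1 TRA (ratio 0.994, 0.939 to 1.05), and Zap70, the kinase it activates, at 363 and 352 CPM in the same order of groups (ratio 1.03, 0.939 to 1.13). Cd3d, a chain of the signalling complex, was at 1106 CPM in cells with 2 TRA and 1101 CPM in cells with 1 TRA. Bcor and Zc3h12a, the edited genes, had ratios of 0.979 and 0.995; their RNA does not check the edit.

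Of the 14 genes that respond to receptor signals, 9 had 200 UMIs and 1 of these was higher, where 0.3% of all genes were: Srm, the spermidine synthase gene. It had 84 UMIs (53.6 CPM) in cells with 2 TRA and 216 UMIs (31.5 CPM) in cells with 1 TRA, a ratio of 1.70 (1.31 to 2.20) and 1.67 when weighted to the TRB. Against cells with 1 own TRA, the ratio of Srm was 1.85 in cells with 1 own and 1 outside TRA, where 1 cell held 15.4% of 65 UMIs. With both own it was 1.08, on 9 UMIs. The immediate early gene Egr1 was at 88.0 CPM in cells with 2 TRA and 82.1 CPM in cells with 1 TRA, and Nr4a1, another, at 33.8 and 29.7 CPM. Other Egr genes had under 200 UMIs and higher ratios. Egr3 had 20 UMIs in cells with 2 TRA and 29 UMIs in cells with 1 TRA (ratio 3.02, 1.62 to 5.53; weighted 4.83), and Egr2 25 and 64 UMIs in the same order of groups (ratio 1.71, 1.03 to 2.76; weighted 2.20). Not all members of the list under 200 UMIs were higher. Irf4 had 11 and 63 UMIs in the same order of groups (ratio 0.765, 0.363 to 1.46, and 0.746 when weighted). Il2 had 35 and 117 UMIs (ratio 1.31, 0.872 to 1.93, and 1.20 when weighted). Myc, which drives growth, had a ratio of 1.36 (1.15 to 1.61).

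Among the largest differences over all genes, Magohb, a part of the exon junction complex, had 67 UMIs (42.7 CPM) in cells with 2 TRA against 163 UMIs (23.7 CPM) in cells with 1 TRA, a ratio of 1.80 (1.33 to 2.41). In order of the ratio, Srm, Fbxo6, Jarid2, Gm6093, Pkd1, Gpm6b, Tmem65, Kif3b, Gpcpd1, Foxo3 and Mrpl27 followed, down to 1.53; the ratio of Gpm6b turned to 0.418 over the cells whose TRA pair was in 1 cell. On the lower side Plcl2, a phospholipase C-like protein without catalytic activity, had 37 UMIs (23.6 CPM) against 313 UMIs (45.6 CPM), a ratio of 0.518 (0.358 to 0.730). Cxcr6, Dnlz, Jak3, Sfswap, Gfm2, Larp1b, Atxn7, Ppif and Heatr6 followed, up to 0.594. Within TRBV15/TRBJ1-1 the ratio of Magohb was 2.68 (1.33 to 5.20) and within TRBV13-2/TRBJ2-3 1.12 (0.529 to 2.22).

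Of 14 cytotoxic genes and chemokines, 9 had 200 UMIs and 2 of these were at least 1.5-fold lower, where 0.9% of all genes were. Both ratios were nearer 1 when weighted to the TRB. Ccl5 was at 695 CPM in cells with 2 TRA and 1158 CPM in cells with 1 TRA, a ratio of 0.600 (0.563 to 0.639), but 1.01 when weighted to the TRB. Within TRBV15/TRBJ1-1 the ratio was 1.34 (1.19 to 1.51), within TRBV13-2/TRBJ2-3 0.538 (0.398 to 0.716) and within TRBV14/TRBJ1-4 3.50 (2.05 to 6.14). These ratios used all cells with 1 TRA of the TRB, also those with an outside TRA. Cells with 1 own and 1 outside TRA were also set against cells with 1 own TRA. Ccl5 was then at 1.35 (1.19 to 1.52) in TRBV15/TRBJ1-1 and 0.868 (0.621 to 1.20) in TRBV13-2/TRBJ2-3. Over all TRB, 1 cell held 19.0% of the 731 Ccl5 UMIs of the cells with 1 own and 1 outside TRA. Its part in the ratio of 1.35 was not tested. Without TRBV15/TRBJ1-1 the weighted ratio of this class was 0.828, against 1.03 with it. With both own the Ccl5 ratio was 5.18 (2.83 to 10.0) in TRBV14/TRBJ1-4. Cxcr6, a chemokine receptor of tissue-resident T cells, was at 26.8 CPM in cells with 2 TRA and 48.6 CPM in cells with 1 TRA (ratio 0.551, 0.390 to 0.761), and at 0.796 when weighted. The ratio of Cxcr6 was 1.32 over the cells whose TRA pair was in 1 cell. Ccl4, another chemokine gene, had 39 UMIs in cells with 2 TRA and 163 UMIs in cells with 1 TRA, a ratio of 1.05 and of 2.36 when weighted. Of its UMIs, 27 lay in the 84 cells with both TRA own, at 125 CPM against 1.22 CPM in cells with 1 own TRA. The 377 cells with 1 own and 1 outside TRA held 4 UMIs, with a ratio of 0.344 on the same basis. Of the members under 200 UMIs, Gzma, the granzyme A gene, had 4 UMIs in cells with 2 TRA and 84 UMIs in cells with 1 TRA (ratio 0.209, 0.0556 to 0.554; weighted 0.372). The ratios of Ccl3 and Gzmm were 0.595 and 0.584, and 0.798 and 0.511 when weighted. Those of Gzmb and Fasl were 0.876 and 0.738, but 1.35 and 1.18 when weighted.

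None of the 13 measured memory and stemness genes passed in the first ratio, among them Tcf7, a transcription factor of memory cells, at 610 CPM in cells with 2 TRA and 601 CPM in cells with 1 TRA; in the weighted ratio Il7r, the interleukin-7 receptor gene, was lower (0.592). None of 14 effector and exhaustion genes passed in either ratio, and Tox, a factor of exhausted T cells, was at 661 and 673 CPM in the same order of groups. Of 9 interferon-type genes none passed in the first ratio, and in the weighted one Ly6c2 was at 1.51. Of the recombination genes, 3 of 6 with a row had 200 UMIs, and their ratios lay between 1.01 and 1.12. Of the other 3, Lig4, the DNA ligase of end joining, had 24 UMIs in cells with 2 TRA and 48 UMIs in cells with 1 TRA (ratio 2.19, 1.28 to 3.65; weighted 2.04). Against cells with 1 own TRA, Lig4 was at 1.15 on 9 UMIs with 1 own and 1 outside TRA, and at 5.05 on 4 UMIs with both own. Dclre1c, also of the other 3, had a ratio of 1.30 with an interval that holds 1 (0.770 to 2.12). Within a single TRB, 2.77% of 1586 genes passed 1.5-fold in either direction in TRBV15/TRBJ1-1 and 1.77% of 1245 in TRBV13-2/TRBJ2-3. In TRBV14/TRBJ1-4 it was 0.741% of 135 genes and in TRBV15/TRBJ2-5 0.552% of 181.

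The TRB with most cells of 2 own TRA were thus read on few genes, and 2 list genes are named after their values were seen. In TRBV15/TRBJ2-5 the gene past 1.5-fold was Klf2, a transcription factor of circulating T cells, with 108 UMIs (1576 CPM) in 28 cells with 2 TRA against 614 UMIs (2574 CPM) in 116 cells with 1 TRA, a ratio of 0.612 (0.494 to 0.752). Over all TRB the ratio of Klf2 was 0.967. In TRBV14/TRBJ1-4, Pdcd1 had 54 UMIs (676 CPM) in 32 cells with 2 TRA and 43 UMIs (307 CPM) in 59 cells with 1 TRA, a ratio of 2.20 (1.45 to 3.36), below the 200 UMIs needed to be counted. Over all TRB it stood at 351 CPM in cells with 2 TRA and 356 CPM in cells with 1 TRA.

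Markers of other cell types were found at like levels in both groups, apart from the erythroid genes. For scale, the CD8 genes Cd8a and Cd8b1 summed to 598 CPM in cells with 2 TRA and 630 CPM in cells with 1 TRA. The 10 B cell genes summed to 654 CPM in cells with 2 TRA and 667 CPM in cells with 1 TRA, with 2 of the 10 at 0 in cells with 2 TRA, and the neutrophil genes Ly6g, Ngp and Cxcr2 were at 0 in both. Of the B cell sum, Ighm, the heavy chain constant gene of IgM, held 438 CPM in cells with 2 TRA and 461 CPM in cells with 1 TRA. The 6 CD4 or regulatory T cell genes summed to 375 and 365 CPM in the same order of groups, and 6 NK cell genes to 318 and 349 CPM. Most of the former sum was Ikzf2 (241 and 231 CPM) and Ctla4 (123 and 126 CPM). Cd4 itself stood at 1.28 and 0.582 CPM, and Foxp3 at 0 in both groups. Most of the NK cell sum was Eomes (307 and 342 CPM), and Klrb1c was at 0 in both. Ctla4 and Eomes also belong to the exhaustion and memory lists above. The part of these other cells in the results was not tested. The 5 erythroid genes summed to 7.02 CPM in cells with 2 TRA and 472 CPM in cells with 1 TRA, where 1 barcode held 3153 of the 3241 UMIs. Haemoglobin genes were left out of the counts over all genes.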

How the data were processed

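The deposited RNA table gives UMI counts with no normalization, and every value is a whole number. The deposited contig table gives counts of UMIs and reads per assembled receptor contig, and the deposited clonotype table counts of barcodes. Per the submitters' processing notes, the tools were STAR 2.6.1a, cutadapt 1.17 and featureCounts 2.0.1 and the build GRCm38, with no role or order. For the receptor assembler, a name was not given in the sources used here. RNA barcodes were kept at 200 genes or more if mitochondrial UMIs stayed under 20% (10338 of 10387). Of 5479 receptor barcodes, 4590 were RNA barcodes, among them all 596 with 2 TRA and 1 TRB and 3050 of the 3110 with 1 TRA and 1 TRB. Productive contigs of 1 barcode and CDR3 were summed.

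Ratios of CPM have exact conditional intervals and shares exact Clopper-Pearson intervals at 95%, from scipy 1.17.1; they cover counting error only, since reads and UMIs of 1 library are not replicates. Expression code was tested on simulated data. T cell receptor, immunoglobulin, haemoglobin and mitochondrial genes were left out of the counts over all genes. Named genes are the fixed lists and, among genes past 1.5-fold whose interval leaves out 1, the 12 highest and 10 lowest; chains are named from pairs in at least 5 cells. The members and lists were chosen with earlier results of these data known. The division into own and outside TRA, the families, the reads per UMI threshold, the family genes and the J distances were added after seeing the data. Levels by class of cell, and the genes named under 200 UMIs, were likewise chosen after their values were seen. V and J positions are from RefSeq annotation of GRCm38.p6.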

Additional observations from a re-analysis of the deposited data

Results flagged for a closer look

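Receptor contigs outside the comparisons also held 2 TRA. There were 57 cells with 2 TRA and no TRB, which are 12.4% of the 460 cells with no TRB and 1 or 2 TRA (9.52 to 15.8%). A further 28 cells had 2 TRA and 2 TRB, which are 11.8% of 237 such cells. Their median RNA depth was 1787 UMIs without a TRB and 2904 UMIs with 2 TRB.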

How the results depend on the processing

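The share of cells with 2 TRA stayed within its interval except at 3 UMIs per chain (14.8%) and at 100 reads per UMI or more (6.28%, 167 cells). With reads in place of UMIs the second TRA had a median of 26.5% of the first. Recurring pairs numbered 29 at 5 cells or more; at 100 reads per UMI or more they numbered 22, in 119 cells, and 50 cells had 1 own and 1 outside TRA. The median RNA depth of cells with 2 TRA was 114% of that of cells with 1 TRA, and 123% for recurring pairs. Genes at least 1.5-fold higher and lower numbered 17 and 51. The higher count was 27 when weighted to the TRB and 33 as a mean over cells. The higher and lower counts were 245 and 444 at 50 UMIs, 0 and 3 at 500 UMIs, 36 and 82 for recurring pairs, 215 and 532 for pairs in 1 cell, 143 and 308 at 100 reads per UMI or more, and 11 and 31 with cells thinned to 1000 UMIs. The lower count was 14 without cells with 1 TRA that carried a chain of a recurring pair. The share of genes past 1.5-fold in either direction was 1.2% of 5664 in the main setting. It was 7.58% of 9086 at 50 UMIs and 0.105% of 2850 at 500 UMIs. For recurring pairs it was 2.13% of 5539, and for pairs in 1 cell 14.5% of 5157. At 100 reads per UMI or more it was 9.49% of 4754, and with thinned cells 1.41% of 2988. Without the cells that carried a chain of a recurring pair it was 0.986% of 3143. Within a TRB at 500 UMIs, 2 genes passed in TRBV15/TRBJ1-1, against 44, and 0 in TRBV13-2/TRBJ2-3, against 22. Ccl5 turned to 1.01 when weighted to the TRB; Cxcr6 to 1.32 for pairs in 1 cell and 1.07 at 100 reads per UMI or more; Gpm6b to 0.418 and 0.764 under the same settings. The cause was not tested; fewer UMIs or genes enter most of these settings. No paired analysis was possible because there is 1 library of each kind. Low counts limit the ratios of single genes.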
